A study of Mus musculus with 10 samples.

Results

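Untreated brain and the hemisphere away from an arterial occlusion were compared between mice lacking Cd93 and wild-type mice on 6 Illumina Mouse-6 bead arrays, taken from a series of 10. The 6 arrays were chosen by their labels and form 3 pairs of 1 knockout (KO) and 1 wild-type (WT) array each, from untreated brain, from the contralateral hemisphere 48 h after 60 min of middle cerebral artery occlusion (MCAo), and from the contralateral hemisphere 72 h after 30 min of MCAo. MCAo closes the main artery of one hemisphere for a time and is a mouse model of stroke, and the contralateral hemisphere is the side away from the closed vessel. The 4 arrays of ipsilateral tissue were left out. All mice were 10 weeks old, the strain is given as C57/Bl6 for both genotypes, and the genotype as CD93 knockout or wild type.

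How the knockout was made, how often it was crossed to C57/Bl6, and how many mice contributed RNA to an array are not given in the sources used here. Each genotype and condition has 1 array. A small p-value here means a difference that is large against the spread over the 3 pairs. The model draws that spread in part from all genes tested, so the p-value does not measure how closely the pairs of a gene agree. Loss of Cd93 and any other difference between the KO and WT mice cannot be told apart with these arrays. Values are log2 intensities after background correction and quantile normalization, differences are KO minus WT on that log2 scale, and a probe counts as above background where its detection p was under 0.01. Between 12811 and 13971 of 46373 probes stood above background per array, with median raw intensities from 51.4 to 58.7. After the filter 8595 genes were tested, each by its brightest probe. Of 8 marker genes set for brain tissue, 7 were tested and stood above background on all 6 arrays, among them the neuronal Snap25 (13.74 to 13.91) and the astrocytic Gfap (9.33 to 10.82). The probes of Xist were below background on all 6 arrays and a probe of the Y-linked Eif2s3y was above it on all 6. The other Eif2s3y probe and the probes of the Y-linked Kdm5d were below background on all 6. Of the Y-linked Uty, 1 probe was above it on 1 WT array and the others on none.

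Cd93 encodes a cell-surface glycoprotein with a C-type lectin-like domain, found on endothelium and on myeloid cells. It belongs to a small family with thrombomodulin (Thbd), Clec14a and endosialin (Cd248), binds the matrix proteins multimerin 2 and IGFBP7, and has been studied in vessel growth, cell adhesion and the uptake of dying cells. In healthy brain it is known chiefly from vessels. The comparison asks how brain outside the occluded hemisphere differs when the gene is lost.

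A difference was called steady where all 3 pairs had the same sign and at least 0.5 in each. Steady differences were found in 32 of 8595 genes (0.372%), 12 higher in KO (0.14%) and 20 lower (0.233%). In a limma model with condition and genotype, 27 genes passed an adjusted p of 0.05 (0.314%), 9 higher (0.105%) and 18 lower (0.209%). All 27 were also steady, and in all 27 the 3 KO values lay wholly on one side of the 3 WT values. Across all genes, 31.8% had the same sign in the 3 pairs at any size, 5.84% lay without overlap higher in KO and 6.29% lower. The number of calls depended on the pairs. Without the 72 h pair 10 genes passed, all among the 27, and the 17 calls that were lost include Cd93, whereas 308 passed without the 48 h pair and 40 without the untreated pair. With no detection filter 9 of the 27 calls held.

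**Figure D1:**
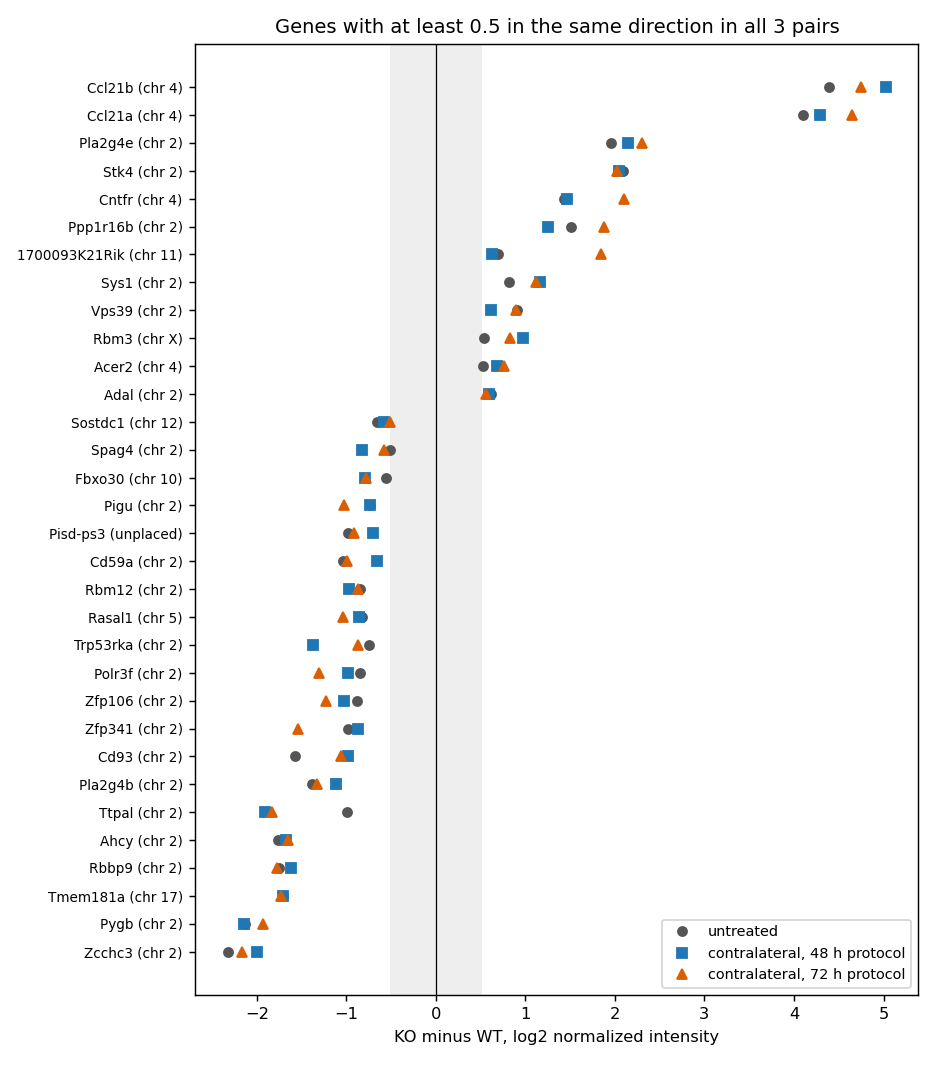
KO minus WT difference in log2 normalized intensity (x axis) in each of the 3 pairs for the 32 steady genes (y axis, with chromosome); circles are untreated brain, squares and triangles the contralateral hemispheres of the 48 h and 72 h protocols, and the grey band marks differences under 0.5. Ccl21a and Ccl21b stand apart at 4.11 to 5.02, and 21 of the 32 genes lie on chromosome 2.

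Cd93 itself was low on all arrays. Its log2 intensity in WT was 6.90 in untreated brain, 6.36 in the contralateral hemisphere of the 48 h protocol and 6.16 in that of the 72 h protocol. In KO it was 5.33, 5.38 and 5.10. All 3 WT values stood above background and no KO value did, without overlap. Cd93 was lower in KO (-1.20 ± 0.14, limma adjusted p = 0.00538), or at least 2.30-fold lower, where the bound equals the fitted fold. Here and below, ± gives the SE of the limma fit, whose variance is drawn in part from all genes tested. Without background correction the difference was -0.68, with the same call. The call was lost without the 72 h pair (-1.28, adjusted p = 0.189). The second Cd93 probe was below background on all 6 arrays, at 5.49 to 5.54 in WT and 4.87 to 4.997 in KO. It is not given whether these probes fall inside the deletion.

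The relatives and partners of Cd93 were measured in part, and Cd93 was the sole call among 10 tested genes of an 18-gene list (median of the list 0.10, all genes 0.0047). The probes of Thbd, Clec14a and Cd248 were below background on all 6 arrays. The ligand genes Mmrn2 and Igfbp7 differed by 0.12 and 0.079, with adjusted p of 0.734 and 0.828 in limma. C1qa, which encodes a chain of complement C1q, once proposed as a ligand of Cd93, was at 8.31, 9.02 and 9.03 in KO and at 8.12, 8.82 and 8.50 in WT in the order of conditions above. C1qa was higher in KO within each pair, by 0.31 on average, but the genotypes overlapped and the adjusted p was 0.468. C1qb (0.26) and the dystroglycan gene Dag1 (0.26) did not pass either. In bulk tissue, fewer cells of a type and less RNA per cell cannot be told apart.

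The largest differences were in 2 chemokine genes of chromosome 4. Ccl21a and Ccl21b encode CCL21, which binds the receptor CCR7 and guides T cells and dendritic cells into lymph nodes. In WT, Ccl21b was at 4.88, 4.67 and 5.08 and Ccl21a at 4.75, 4.81 and 4.79, in untreated, 48 h and 72 h contralateral tissue, all below background. In KO, Ccl21b reached 9.26, 9.69 and 9.83, and Ccl21a 8.86, 9.10 and 9.44. For each probe all KO values lay far above all WT values. Ccl21b was at least 22.6-fold higher in KO (fitted difference 4.72 ± 0.13, limma adjusted p = 3.99e-07) and Ccl21a at least 16.9-fold higher (4.35 ± 0.13, adjusted p = 3.99e-07). A second Ccl21b probe, also below background in WT, was at least 17.7-fold higher. Mice have further near-identical copies of Ccl21, to which no probe was assigned, so the copy that these probes read is uncertain.

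The other tested chemokine genes did not follow. Of 11 tested, 2 passed, and these are the Ccl21 genes. The list has a median of 0.037. Ccl4, an attractant of myeloid cells, was at 4.55, 6.94 and 6.92 in KO and at 4.56, 6.96 and 5.46 in WT, so its mean difference of 0.47 came from the 72 h pair (1.46). Ccl4 was above background on 2 KO arrays and 1 WT array, so the 1.46 is set against a background reading in WT. Of the meningeal and fibroblast markers, another group of cells that brain dissection can carry, 8 of 20 were tested, none passed, and the summed linear intensity was 12475 to 15588 in KO and 12111 to 13731 in WT. Dcn (0.40) and Islr (0.29), both of that list, lay without overlap higher in KO, as did 5.84% of all genes tested. Of the 8 genes 5 were fitted above 0, and the lowest fitted difference was -0.085. The part of these cells in the Ccl21 signal was not tested.

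Cntfr, the gene of the receptor subunit that binds ciliary neurotrophic factor, also lies on chromosome 4 and was higher in KO. It was at 5.89, 5.98 and 5.92 in WT and at 7.32, 7.44 and 8.02 in KO, in untreated, 48 h and 72 h contralateral tissue. The WT values lay close together and below all KO values. The difference was 1.67 ± 0.15 (adjusted p = 0.000927). In the order of tested genes, Cntfr, Ccl21b and Ccl21a fall within 8 consecutive genes. The 5 tested genes between them, Rpp25l, Dctn3, Galt, Ccl27a and Il11ra2, differed by -0.049 to 0.12 and none passed. The fourth steady gene of the chromosome, the ceramidase gene Acer2, lies 87 tested genes from Ccl21a and did not pass (0.66 ± 0.11, adjusted p = 0.0545).

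The sequences at the starts of these 3 genes are shown because they moved together, and because start windows of Ccl21b and Cntfr share long stretches. Of the 6 Cntfr windows, the one with the longest run in common with Ccl21b is shown. In the others the longest shared run was 266, 67, 11, 11 and 8 bases. Each window holds 250 bases before and 50 after the start of a RefSeq transcript in GRCm38.p6, written along the gene's strand. Capitals mark the longest run of bases that the Ccl21b and Cntfr windows have in common. Ccl21b lies at chr4:42172870-42173169 (plus strand), Cntfr at chr4:41695426-41695725 (minus strand) and Ccl21a at chr4:42773942-42774241 (minus strand).
Ccl21b: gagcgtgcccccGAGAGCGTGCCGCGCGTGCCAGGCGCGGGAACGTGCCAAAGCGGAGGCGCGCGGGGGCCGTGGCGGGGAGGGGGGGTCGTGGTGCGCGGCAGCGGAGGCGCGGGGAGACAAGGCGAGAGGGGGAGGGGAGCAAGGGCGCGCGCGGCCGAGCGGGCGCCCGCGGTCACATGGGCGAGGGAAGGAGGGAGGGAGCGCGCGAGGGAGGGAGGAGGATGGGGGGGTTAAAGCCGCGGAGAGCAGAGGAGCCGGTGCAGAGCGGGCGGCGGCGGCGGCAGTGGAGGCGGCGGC
Cntfr: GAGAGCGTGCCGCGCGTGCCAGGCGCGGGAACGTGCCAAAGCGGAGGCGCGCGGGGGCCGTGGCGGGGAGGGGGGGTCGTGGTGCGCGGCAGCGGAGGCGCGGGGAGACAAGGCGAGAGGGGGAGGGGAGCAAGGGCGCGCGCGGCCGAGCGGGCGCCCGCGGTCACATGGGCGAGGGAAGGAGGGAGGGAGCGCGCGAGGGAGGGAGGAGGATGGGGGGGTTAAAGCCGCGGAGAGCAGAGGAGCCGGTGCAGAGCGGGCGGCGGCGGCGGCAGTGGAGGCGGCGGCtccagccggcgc
Ccl21a: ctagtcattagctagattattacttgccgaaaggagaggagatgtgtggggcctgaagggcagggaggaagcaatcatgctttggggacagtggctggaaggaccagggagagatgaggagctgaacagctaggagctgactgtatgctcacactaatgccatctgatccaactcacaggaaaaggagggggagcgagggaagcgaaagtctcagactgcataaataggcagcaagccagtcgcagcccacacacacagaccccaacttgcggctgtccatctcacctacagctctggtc
The identical run spans 288 of 300 bases, from position 13 in the Ccl21b window and position 1 in the Cntfr window. Of 32851 windows in the table, 5 hold a stretch of at least 30 bases of the Ccl21b window on either strand (0.0152%). These are the window of Ccl21b, 3 of the 6 Cntfr windows, and that of 4930578G10Rik, to which no probe was assigned. The Ccl21a window shares at most 10 bases in a row with that of Ccl21b and at most 10 with any Cntfr window. The GC content is 78.7% in the Ccl21b and Cntfr windows and 53.7% in that of Ccl21a.

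**Figure D2:**
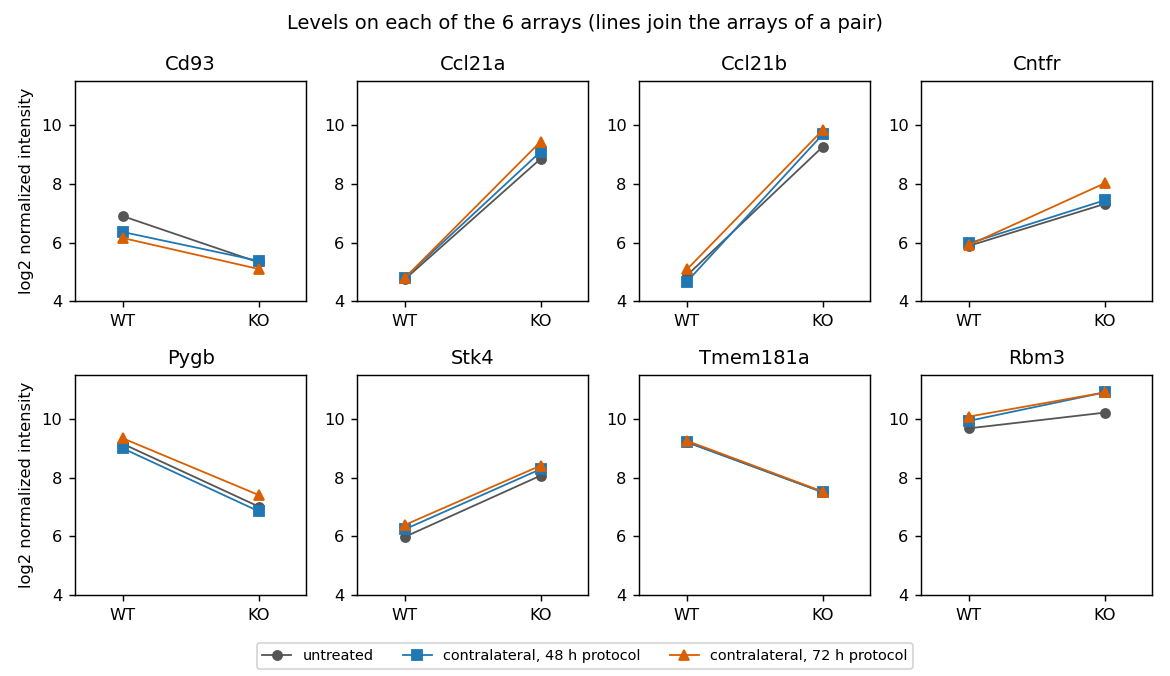
Log2 normalized intensity (y axis) of 8 genes in WT and KO tissue (x axis), with a line joining the arrays of each pair; circles are untreated brain, squares and triangles the contralateral hemispheres of the 48 h and 72 h protocols. Ccl21a and Ccl21b rise from below 5.09 in WT to between 8.86 and 9.83 in KO, and the 3 lines of Tmem181a nearly coincide.

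Chromosome 2, which carries Cd93, held 21 of the 32 steady genes among 698 tested (3.01%), against 11 of 7897 on all other chromosomes (0.139%). Of its genes 19 passed the test, 5 higher and 14 lower in KO, against 8 elsewhere. The 21 genes lie within a stretch of 285 consecutive tested genes, from Cd59a, 159 genes before Cd93, to Trp53rka, 125 genes after it. The stretch was drawn from the first to the last steady gene, so by definition none of the 413 genes outside it was steady. Within it the genes were not evenly spread: the 50 genes from 99 to 50 before Cd93 held none, the 50 just after Cd93 held 5, all lower, and the 50 from 149 to 100 before it held 5, of which 3 were higher. Read by every detected probe with 1 gene, chromosome 2 held 37 steady probes of 924, against 14 of 10403 elsewhere. Since the steady genes of chromosome 2 were known from earlier results of these data, the counts are a description.

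**Figure D3:**
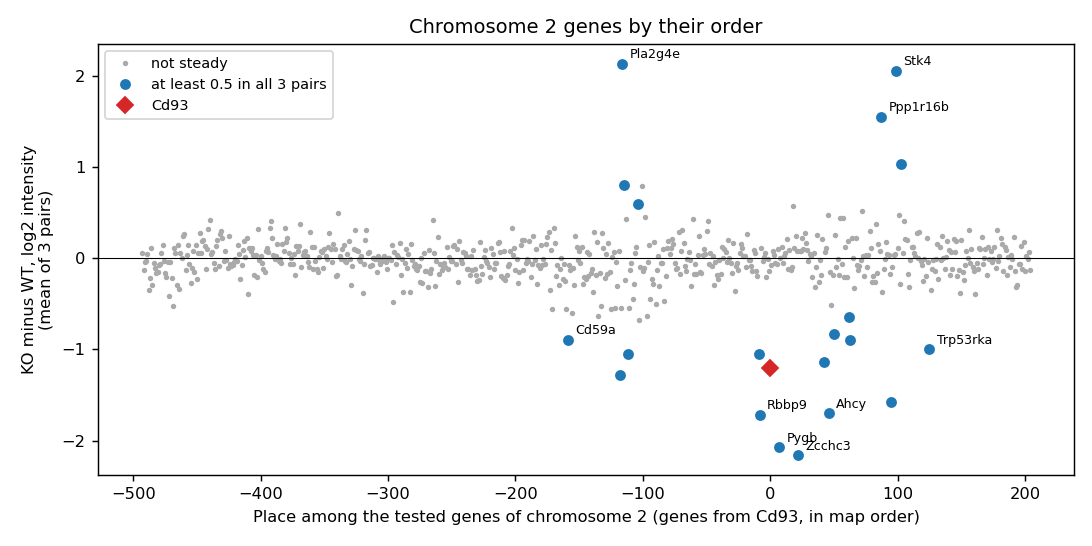
Mean KO minus WT difference in log2 intensity over the 3 pairs (y axis) for the 698 tested genes of chromosome 2, by place among them counted from Cd93 (x axis); large points are steady genes and the diamond is Cd93. The 21 steady genes lie between 159 genes before and 125 genes after Cd93, with differences of both signs.

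The called and steady genes of chromosome 2 follow one by one, ordered by known role, and no role was tested as a group. Pygb, the brain form of glycogen phosphorylase, which releases glucose units from glycogen, was at 9.15, 8.998 and 9.34 in WT and at 7.02, 6.86 and 7.41 in KO, in untreated, 48 h and 72 h contralateral tissue. It lies 7 tested genes from Cd93 and was lower in KO (-2.07 ± 0.11, adjusted p = 2.41e-05), without overlap. Ahcy encodes the enzyme that splits S-adenosylhomocysteine, the by-product of methylation reactions. It was at 7.41, 7.25 and 7.38 in WT and at 5.64, 5.57 and 5.73 in KO, below background there, and was at least 3.25-fold lower (adjusted p = 5.87e-05). The adenosine deaminase-like gene Adal was steady but did not pass (0.59, adjusted p = 0.0734), and its other detected probes gave -0.13 and -0.22.

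The cytosolic phospholipase A2 genes Pla2g4e and Pla2g4b, near neighbours whose products act on membrane phospholipids, went opposite ways. Pla2g4e was at 7.44, 7.38 and 7.24 in WT and at 9.40, 9.53 and 9.54 in KO, higher by 2.13 ± 0.11 (adjusted p = 2.41e-05). Pla2g4b was at 6.11, 5.89 and 6.02 in WT and at 4.72, 4.77 and 4.70 in KO, where it was below background, and was at least 1.88-fold lower (adjusted p = 0.000894). In the order of tested genes they stand 116 and 118 before Cd93, and Vps39, a subunit of the HOPS complex that tethers late endosomes to lysosomes, stands 115 before it. Vps39 was higher in KO (0.80 ± 0.11, adjusted p = 0.0191). Signals of overlapping or near-identical transcripts cannot be told apart by a single probe, and the position of these probes is not given.

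Stk4 encodes the Hippo pathway kinase MST1, which restrains growth and promotes cell death. It was at 5.98, 6.24 and 6.39 in WT and at 8.07, 8.29 and 8.41 in KO, higher by 2.05 ± 0.10 (adjusted p = 2.41e-05), and its 3 differences lay between 2.02 and 2.09. Ppp1r16b, a regulatory subunit of protein phosphatase 1 that is abundant in endothelium, was at 6.15, 6.12 and 5.68 in WT and at 7.66, 7.37 and 7.56 in KO (1.55 ± 0.13, adjusted p = 0.000894). The other Ppp1r16b probe, above background on all 6 arrays, showed no such shift (-0.010), so the gene's change rests on 1 probe. Trp53rka, a kinase of the KEOPS complex that modifies transfer RNA, was lower (-0.999 ± 0.14, adjusted p = 0.0168), and a similar gene, Trp53rkb, may contribute to its signal.

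Zcchc3, which in human cells assists sensors of foreign nucleic acid, was at 6.96, 6.93 and 6.83 in WT and at 4.64, 4.94 and 4.67 in KO. Its KO values were below background and it was at least 3.51-fold lower (adjusted p = 2.41e-05). Rbbp9, a serine hydrolase first described as a partner of the retinoblastoma protein, was at 8.60, 8.74 and 8.99 in WT and at 6.85, 7.13 and 7.22 in KO (-1.71 ± 0.11, adjusted p = 5.87e-05). Polr3f, a subunit of RNA polymerase III, was at least 1.99-fold lower (adjusted p = 0.00618), and Zfp341, a zinc finger factor, was lower (-1.13 ± 0.14, adjusted p = 0.0106). Rbm12 was lower by both detected probes (-0.90 and -1.27). Zfp106, an RNA-binding zinc finger protein, was lower by its brightest probe (-1.05 ± 0.11, adjusted p = 0.00479), whereas a second probe stood at 0.57 and did not pass.

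Cd59a encodes the membrane protein that blocks the terminal attack complex of complement, and it was at 9.83, 9.94 and 9.81 in WT and at 8.79, 9.285 and 8.82 in KO (-0.89 ± 0.12, adjusted p = 0.0129). Among 8 tested complement genes it was the sole call. Pigu, a subunit of the transamidase that attaches glycosylphosphatidylinositol anchors such as that of Cd59a, was lower too (-0.83 ± 0.11, adjusted p = 0.015). Sys1, a Golgi membrane protein that recruits a small GTPase, was higher (1.03 ± 0.11, adjusted p = 0.00507). Ttpal, a relative of the alpha-tocopherol transfer protein, was lower by 1 probe (-1.58 ± 0.17, adjusted p = 0.00507), with -0.51 and -0.44 by its other detected probes. Spag4, a SUN domain protein, was steady and did not pass (-0.64, adjusted p = 0.0734).

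Outside chromosomes 2 and 4, 5 genes passed. Tmem181a, a transmembrane protein gene of chromosome 17, was at 9.21, 9.21 and 9.26 in WT and at 7.502, 7.51 and 7.53 in KO. Its 3 differences lay between -1.73 and -1.71, and it was lower in KO (-1.71 ± 0.10, adjusted p = 5.87e-05), and at least 4.79-fold lower by a second probe that was below background in KO. Rasal1 of chromosome 5, which switches off Ras, was lower (-0.91 ± 0.11, adjusted p = 0.00665). Fbxo30 of chromosome 10, a subunit of a ubiquitin ligase, was at least 1.64-fold lower (adjusted p = 0.0358). Pisd-ps3, an unplaced pseudogene with similar copies, was lower by 1 of its probes (-0.87 ± 0.11, adjusted p = 0.0106), with 0.036 by the other.

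The fifth of these, Rbm3 of the X chromosome, encodes an RNA-binding protein induced by cooling. It was at 9.68, 9.93 and 10.08 in WT and at 10.21, 10.90 and 10.90 in KO. All KO values exceeded all WT values, and the difference was 0.78 ± 0.12 (adjusted p = 0.0358). Cirbp, the related cold-inducible gene, was at 7.84, 8.001 and 8.14 in WT and at 8.15, 8.88 and 9.05 in KO, likewise without overlap, but did not pass (0.70, adjusted p = 0.126). Of the 12 tested genes of heat, cold and protein folding stress, Rbm3 was the sole call, and the list median was -0.11. Hsp90b1, a chaperone of the endoplasmic reticulum, was at -0.31 (adjusted p = 0.449). The call for Rbm3 was lost without the 72 h pair, without the condition term, with every probe tested and with no detection filter.

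The lists for cell types held no further calls. Of all genes tested 0.314% passed, so lists this short would hold few calls, if any. None passed among 24 endothelial genes (median 0.098), 7 of pericytes and smooth muscle (0.11), 14 of microglia (0.14), 18 of astrocytes (0.054), 15 of oligodendrocytes (0.080), 21 of neurons in general (-0.027), 16 of cortical (-0.082) and 19 of striatal neurons (-0.056). The von Willebrand factor gene Vwf was the endothelial gene with the largest fitted difference (0.38, adjusted p = 0.321), and Cldn5, of the tight junctions, differed by 0.096. Fcgr3, a receptor for antibodies on microglia, was higher in each pair (0.45, 0.50 and 0.34) but did not pass (adjusted p = 0.24). Tmem119, a marker of resting microglia, was lower in each pair (-0.46, -0.063 and -0.40) and did not pass either (adjusted p = 0.472). Summed linear intensities of the endothelial list were 11106 to 13204 in KO and 10142 to 11624 in WT, and those of the microglial list 5390 to 6120 and 4790 to 5528. Under median centring in place of quantile normalization the medians were 0.033 for endothelium and 0.069 for microglia, against -0.054 for all genes, and that of astrocytes turned to -0.00247.

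Lists of immune function held no further call, but these too are short against a share of 0.314% over all genes. No gene passed among 13 of phagocytic clearance (median -0.013), 10 cytokines and receptors (0.044), 10 of adhesion and vessel activation (-0.028), 13 interferon-response genes (0.15) and 14 of antigen presentation (0.16). The interferon median was 0.23, 0.33 and -0.12 in the untreated, 48 h and 72 h pairs, and it was 0.037 without the 48 h and 0.27 without the 72 h pair. In the last list the light chain gene B2m, which pairs with class I molecules, was at 11.06, 10.59 and 10.94 in WT and at 10.41, 10.34 and 10.32 in KO. B2m lies on chromosome 2 and was lower without overlap, but did not pass (-0.505, adjusted p = 0.222). In the list 13 of the 14 fitted differences were above 0, as were 4431 of 8595 over all genes. Cd74, the invariant chain of class II molecules, was higher without overlap (0.46, adjusted p = 0.404). Its differences were 0.60, 0.77 and 0.0087 in the untreated, 48 h and 72 h pairs, with 2 of the 3 WT arrays above background. Over all genes 5.84% lay without overlap higher and 6.29% lower.

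Blood markers differed in the 48 h pair. The 6 tested genes of circulating blood had medians of -0.11 in the untreated, 0.74 in the 48 h and -0.081 in the 72 h pair, and their overall median of 0.24 became -0.14 without the 48 h pair. S100a8, a neutrophil gene, was at 7.51 in the KO array of that pair and between 4.71 and 5.98 on the other 5 arrays. Among 4 tested genes of recruited myeloid cells and 3 of lymphocytes none passed, with medians of 0.23 (-0.36 without the 48 h pair) and -0.046. The part of blood in the other differences of the 48 h pair was not tested.

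Regional and fluid-barrier markers gave no calls among 12 choroid plexus genes (median -0.042), 8 of meninges and fibroblasts (0.10), 11 of hypothalamus and pituitary (0.15) and 16 of other brain regions (0.11). With 0.314% of all genes called, few calls, if any, would fall in lists of this size. Sostdc1, an antagonist of BMP and Wnt signals and a marker of choroid plexus, was steady at 6.87, 6.49 and 6.61 in WT and 6.21, 5.91 and 6.11 in KO (-0.58, adjusted p = 0.086). Of the other members, Igfbp2 (-0.27), Folr1 (-0.26) and Wfdc2 (0.21) did not pass, 5 of the 12 were fitted above 0, and the list median was 0.026 without the 48 h pair.

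Immediate early genes, which neurons switch on within minutes of activity, had the lowest median of the lists with at least 5 tested members. It was -0.44 over 18 genes, of which none passed, 14 were fitted below 0 and 10 were lower in KO in all 3 pairs. Of all 8595 genes tested, 1329 were lower in all 3 pairs and 4431 were fitted above 0. Arc was at 10.04, 9.97 and 9.23 in WT and at 9.93, 8.33 and 8.66 in KO (-0.77, adjusted p = 0.364), and Fos at 8.74, 8.29 and 7.44 in WT and at 8.36, 6.71 and 7.27 in KO (-0.71, adjusted p = 0.413). The genotypes overlapped for both genes. The list medians by pair were -0.12, -0.67 and -0.068, so the 48 h pair carried most of the shift, and without it the median was -0.16. Egr1 (-0.58) and Npas4 (-0.57), transcription factors of the same response, did not pass.

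Genes that respond to glucocorticoids, the stress hormones of the adrenal gland, had a median of 0.26 over 18 genes. It was 0.23 under median centring and 0.18 without the 72 h pair, and in both settings the 6 genes of circulating blood had a higher one (0.24 and 0.32). None passed, and 17 were fitted above 0, as were 4431 of all 8595 genes. Plin4, a lipid droplet protein, was at 5.399, 8.69 and 8.16 in WT and at 5.79, 9.86 and 9.82 in KO (1.08, adjusted p = 0.107). Its KO value exceeded the WT value in each pair, but its level differed far more between untreated and contralateral tissue than between genotypes. Both untreated values of Plin4 were below background. Fkbp5, a co-chaperone of the glucocorticoid receptor, was higher in each pair (0.42, 0.42 and 0.70, adjusted p = 0.186). By pair the list medians were 0.061, 0.35 and 0.50. In the 15 tested genes of the circadian clock no gene passed (median -0.033), and Nr1d2, a repressor within the clock, stood at 0.98, -0.022 and 1.05. The hour at which tissue was taken is not given.

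**Figure D4:**
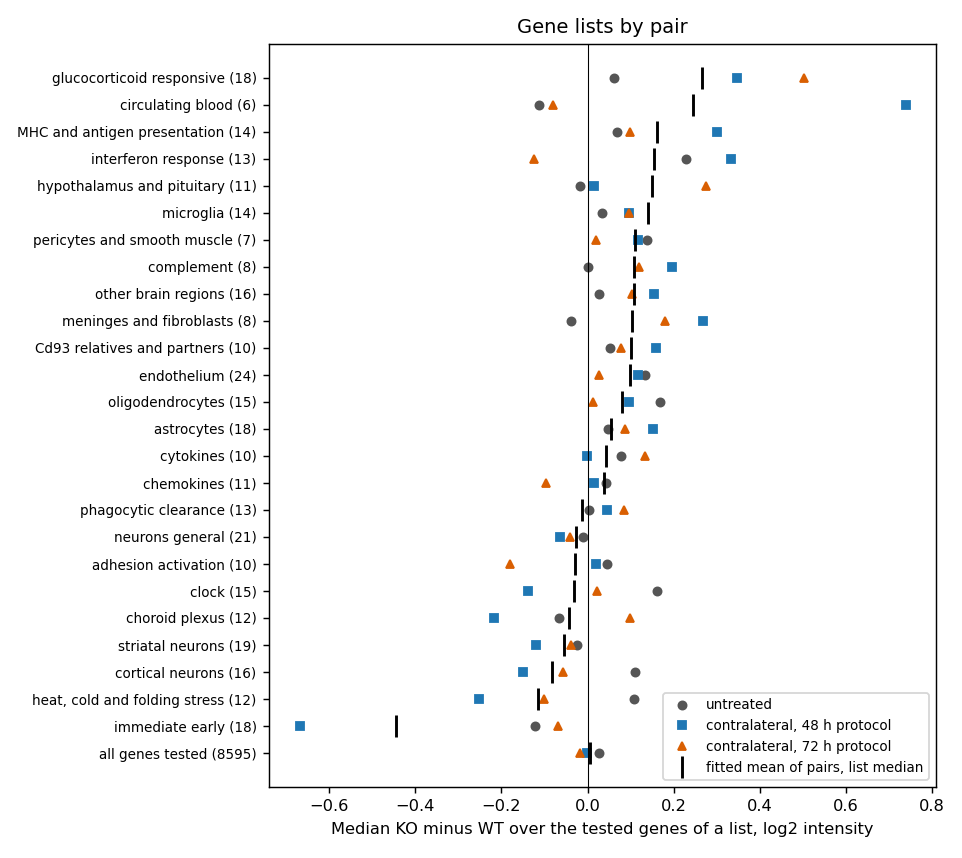
Median KO minus WT difference in log2 intensity (x axis) over the tested genes of each list (y axis, number of tested genes in brackets) in the untreated (circles), 48 h contralateral (squares) and 72 h contralateral pair (triangles); the bar is the list median of the fitted means, and lists with fewer than 5 tested genes are left out. The immediate early genes lie lowest at -0.44 and the glucocorticoid-responsive genes highest at 0.26, though below circulating blood under median centring or without the 72 h or the untreated pair, and in most lists the 3 pairs spread widely about the bar.

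The genotype difference was also compared between untreated and contralateral tissue, with an interaction term in limma that was added after the data had been seen. It left 1 residual degree of freedom. Of 8595 genes 1 passed (0.0116%), and 282 had an unadjusted p under 0.05. None of the 27 called genes passed, and the largest shift among them was in Ttpal, with -0.99 in untreated and -1.91 and -1.84 in contralateral tissue (adjusted p = 0.999). The gene that passed was Pop4, named after its values were seen, which encodes a subunit of ribonuclease P. Pop4 was at 9.34, 9.25 and 9.22 in KO and at 9.11, 5.04 and 4.55 in WT, where both contralateral arrays were below background, so KO exceeded WT at least 18.3-fold there. On the 4 ipsilateral arrays it was at 9.20 and 9.31 in WT and at 8.99 and 4.81 in KO, for the 48 h and 72 h protocols, so 3 of all 10 arrays were below background and they include both genotypes. Its second probe was below background on all 10 arrays, and none of the 5 tested genes on either side of Pop4 passed.

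**Figure D5:**
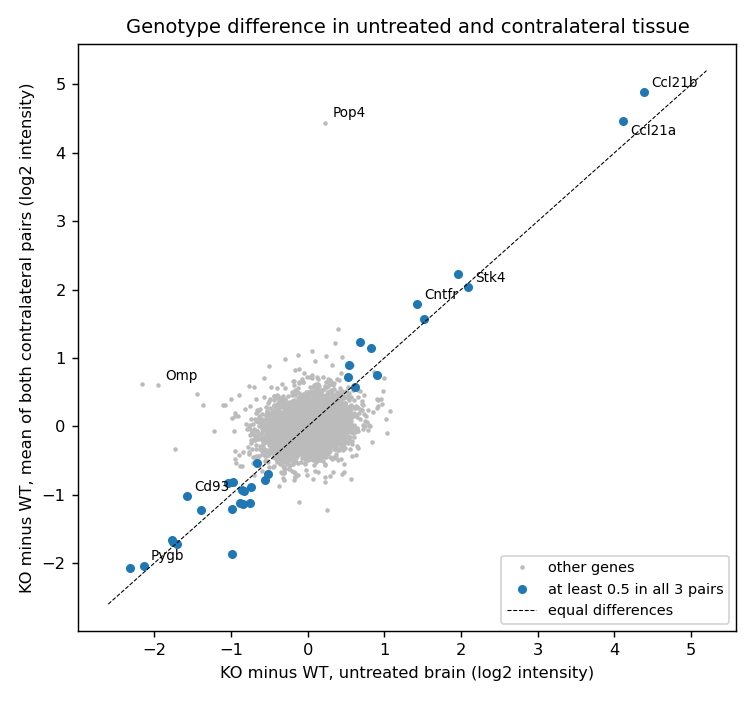
KO minus WT difference in log2 intensity in untreated brain (x axis) against the mean of both contralateral pairs (y axis), with 1 point for each of the 8595 tested genes; filled circles are the 32 steady genes and the dashed line marks equal differences. The steady genes were chosen from these same differences, so they share a sign on both axes by definition. Their place near the line is therefore no test of equal differences in both tissues. Among them Ttpal lies off the line, with -0.99 in untreated brain and -1.91 and -1.84 in the contralateral pairs. Pop4, which is not steady, stands off it at 0.23 on the x axis.

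The threshold of 0.5 separates close values. Just inside it, the smallest of the 3 differences was 0.54 for Rbm3, 0.52 for Acer2, 0.51 for Spag4 and 0.51 for Sostdc1. Just outside, it was 0.496 for Traf7, 0.48 for Cyp3a13, 0.47 for Tubgcp4 and 0.47 for Gys1. The fifth steady gene that did not pass is 1700093K21Rik of chromosome 11 (1.05 ± 0.21, adjusted p = 0.148). At a minimum of 1 in each pair, 12 genes were steady, 6 higher and 6 lower in KO. The number of arrays limits the precision of every value given here.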

How the data were processed

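RNA was extracted with Trizol, amplified and labelled as cRNA, per the labels. The deposited non-normalized table holds a linear bead intensity for each probe and array, per the file headers, with a detection value that rises with intensity; it was read as 1 minus the detection p-value deposited by the authors. The authors' value table holds intensity after their own normalization, in which KO and WT share a scale in the untreated pair alone; it served there as an alternative. The authors' software is not given in the sources used here.

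Background was corrected in R 4.3.3 with the package limma 3.58.1 (nec, negative controls inferred from detection p, offset 16), quantile-normalized over all 10 arrays and put on the log2 scale. A probe was kept if its detection p fell below 0.01 on 2 or more of the 6 arrays. Of 46373 probes, 29800 have 1 gene in the platform annotation, 10 several and 16563 none, and 29746 were matched by gene ID to RefSeq genes of GRCm38.p6, used for names, chromosomes and gene order because the array files name no build. The limma model had condition (the pair) and genotype, with 2 residual degrees of freedom, and Benjamini-Hochberg adjustment over 8595 genes. Where 1 genotype was below background on all its arrays, the fold is a bound against the lowest detected level of each array, or the probe's own value if higher. The script was tested on simulated data.

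Named genes are Cd93, those past the threshold, the steady genes with the largest smallest difference, up to 4 members of each list and a few fixed relatives. The comparison, members and lists were chosen with earlier results of these data known. Alternatives were other background correction, normalization, filters, probes, variance prior, arrays, no condition block, leaving out pairs, and an interaction fit added later.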

Additional observations from a re-analysis of the deposited data

Results flagged for a closer look

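The genotype difference of Pop4 was larger in contralateral than in untreated tissue, by a fitted 4.21 (limma interaction, adjusted p = 7.15e-06). Its probe was below background on both contralateral WT arrays, so this size rests on background there, and contralateral KO exceeded WT at least 18.3-fold. The second Pop4 probe was below background on all 10 arrays. The first probe was below background on 3 of the 10, of both genotypes.

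In 4 named genes the untreated pair went one way and both contralateral pairs the other, with at least 0.25 in each pair. Cdkn1a differed by -0.30 in untreated tissue and by 0.39 and 1.59 in the 48 h and 72 h contralateral pairs. For Per2 the values were 0.44, -0.72 and -0.68, for Tyrobp -0.33, 0.60 and 0.64, and for Slc6a13 -0.33, 0.38 and 0.36. Tyrobp was above background on only 2 KO arrays and 1 WT array, so its differences rest in part on background readings. None of these shifts passed in the interaction fit, with adjusted p of 0.406 for Per2, 0.808 for Tyrobp, 0.994 for Cdkn1a and above 0.99 for Slc6a13.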

How the results depend on the processing

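Cd93 stayed lower in KO under each alternative that measured it, which leaves out detection on all 6 arrays, where it was not tested. Its call was lost with no detection filter (-1.20, adjusted p = 0.313), and leaving out 1 pair gave -1.32 to -1.02. The main 27 calls became 50 under median centring (16 higher, 34 lower) and 9 with no detection filter. They became 52 with a variance trend and robust prior (23 higher, 29 lower), and leaving out 1 pair gave 10 to 308. With every probe tested 52 passed, counted as probes with or without a gene. Without the condition block 22 of the 27 calls held, and Rbm3, Cd59a, Pigu, Vps39 and Fbxo30 lost theirs. Ccl21a, Ccl21b, Zcchc3, Pla2g4e, Pygb, Stk4, Tmem181a, Rbbp9 and Ahcy, 9 in all, kept their calls in each setting that tested them. Steady genes numbered 20 with detection on all 6 arrays, 193 at a minimum of 0.25 and 12 at a minimum of 1, and 49 to 92 without 1 pair. With every probe read, 63 probes were steady, counted with or without a gene. Chromosome 2 held 37 steady probes with every probe read. Ppp1r16b turned to -0.010 with detection on all 6 arrays, which selects its other probe. Median centring also turned the list medians of astrocytes (-0.00247), chemokines (-0.0202) and cytokines (-0.0056) below 0. Without the 48 h pair the medians of circulating blood (-0.14), recruited myeloid cells (-0.36) and chemokines (-0.0184) fell below 0, and those of cortical neurons (0.038), choroid plexus (0.026) and clock genes (0.061) rose above it. Without the 72 h pair cytokines (-0.0072), adhesion (0.035), neurons in general (0.0062), lymphocytes (0.023) and phagocytic clearance (0.017) changed sign, as did, without the untreated pair, chemokines (-0.024) and phagocytic clearance (0.043). In the authors' value table the untreated pair gave -0.99 for Cd93, against -1.57 for that pair in the main processing. The values of the other genes in the authors' table are not given here, so this check covers Cd93 alone. Low signal limits Cd93 and the genes given as bounds.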

Other observations

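Omp and Doc2g, markers of the olfactory bulb chosen after their values were seen, were lower in KO in the untreated pair (-1.95 and -1.44) and higher in the 48 h contralateral pair (1.44 and 0.90), with -0.25 and 0.038 in the 72 h pair. Neither passed the interaction test (adjusted p = 0.283 and 0.241).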
